A study of Mus musculus with 4 samples.

Results

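Dicer1, Drosha, Dgcr8, Tarbp2, Prkra and the Argonaute genes Ago1, Ago2, Ago3 and Ago4 encode the core machinery that makes and loads small silencing RNAs. They were taken by gene symbol from a table of 23922 genes measured in mouse embryonic stem cells of the E14 line. All 9 symbols were found, so no older Eif2c name was needed. In 2 libraries the cells had received esiRNA directed at Pnldc1, and in the other 2 esiRNA directed at Luc, the luciferase reporter that mouse cells do not carry. Pnldc1 encodes a deadenylase related to PARN. An esiRNA is a mixture of short interfering RNAs cut in the test tube from a long double-stranded RNA. Both groups were grown in serum and leukemia inhibitory factor (LIF) on gelatin and received Lipofectamine RNAiMAX. Every library thus comes from cells that were given short interfering RNA, and the values here do not measure its uptake. No untransfected cells are among the samples.

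The microRNA pathway has a nuclear and a cytoplasmic part. In the nucleus Drosha, an RNase III enzyme, and its double-stranded RNA-binding partner Dgcr8 cut hairpins out of primary microRNA transcripts. In the cytoplasm Dicer1, assisted by the double-stranded RNA-binding proteins Tarbp2 (TRBP) and Prkra (PACT), cuts the hairpin precursor to a duplex, and 1 strand is loaded into an Argonaute protein. Dicer1 also cuts long double-stranded RNA into endogenous siRNA, a route that bypasses Drosha and Dgcr8. Ago2 is the Argonaute best known for cleaving its targets. Mouse embryonic stem cells that lack Dicer1 or Dgcr8 survive but proliferate and differentiate poorly.

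The table gives each gene 1 expression value in each of 2 conditions, named q2 and q1, into which the authors combined the 4 libraries. The sources used here do not tie q2 or q1 to an esiRNA, so a difference below is higher or lower in q2 and is not a direction of the Pnldc1 silencing. There are no values of single libraries, so no SD can be given, and the authors' Cuffdiff test is the measure of replicate error. Whether the 2 libraries with the same esiRNA are separate cultures is not said, so its p-values may measure only technical spread. Low values fell in steps that scale with transcript length, as values per kilobase would, and the steps correspond to about 1440000 fragments in q2 and 1190000 in q1. Intervals below are 95% exact Poisson intervals for a value, and Clopper-Pearson intervals turned into a ratio for a log2 ratio, on the read equivalents at that depth. They are approximate, cover counting error only and leave out the spread between libraries. In bulk RNA such as this, fewer cells of a kind and less RNA per cell cannot be told apart. The cells carried the markers of their label: all 8 listed genes of undifferentiated stem cells were tested, at 18.2 to 865 in q2 and 27.5 to 714 in q1. By the authors' Cuffdiff test none of these 8 passed at a q under 0.05, beside 4.25% of all tested genes. An unadjusted p below 0.05 was met by 2, beside 18.8% of all tested genes. These were Klf4 (log2 ratio of q2 over q1 -0.59) and Dppa5a (0.35), in opposite directions. None of 15 markers of other cell types was tested, and their values summed to 24.1 in q2 and 18.1 in q1. Of the 15, 8 had values above 0 in both conditions, and Afp, Alb, T and Col1a2 were at 0 in both. Thy1 had the highest value of the list in both conditions, with Pax6 and Nes next. In q2 the Thy1 value was above that of Ago1, so these markers were not all absent.

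None of the machinery genes passed the authors' test, and Tarbp2 came nearest. Of the 9 genes 6 were tested, and 0 of these 6 had a q under 0.05 in the authors' deposited table. At an unadjusted p under 0.05 there was 1, Tarbp2. Of all 5719 tested genes 4.25% passed, 2.31% as higher in q2 and 1.94% as lower in q2. An unadjusted p under 0.05 was met by 18.8% of them (10.5% higher and 8.29% lower in q2). A q under 0.10 was met by 7.36% (4.14% higher, 3.22% lower), and a q under 0.01 by 1.87% (1.14% higher, 0.734% lower). A count of 0 among 6 genes is near that background and says nothing particular about them. Among the 8 genes with values above 0, Tarbp2 and Ago3 had the higher value in q2 and the other 6 had the lower. The median log2 ratio of q2 over q1 was -0.16 over these 8 genes, against 0.06 over all tested genes, of which 44.6% were lower in q2.

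**Figure D1:**
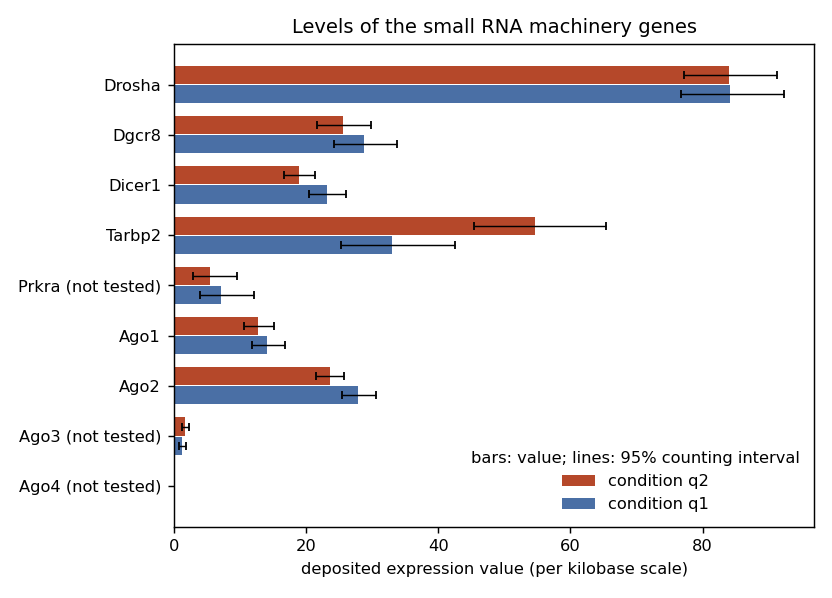
Deposited expression value of each gene (x axis, per kilobase scale) in condition q2 (upper bar) and condition q1 (lower bar), with 95% counting intervals as lines. Drosha stands near 84 in both conditions, Tarbp2 has 54.6 in q2 and 33.0 in q1, and Ago4 is listed at 0.

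Pnldc1, the target of the silencing, had a deposited value of 26.8 in q2 and 18.1 in q1, and did not pass the authors' test (log2 ratio 0.56, interval 0.03 to 1.13, q = 0.399 in the authors' deposited table). Its values neither tell the conditions apart nor establish that the target RNA was reduced.

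Drosha was the most abundant of the machinery genes and differed least between the conditions. Its deposited value was 84.0 in q2 and 84.2 in q1, with a log2 ratio of -0.003 (interval -0.18 to 0.18, p = 0.980, q = 0.988 in the authors' deposited table). The value rests on about 553 read equivalents in q2 and 458 in q1, the largest sum of the 9 genes. The gene spans chr15:12824815-12935291 (GRCm38, as for all coordinates here) on the plus strand. Its representative transcript has 35 exons and 4570 bases.

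Dgcr8, which anchors the primary microRNA for Drosha, stood at a lower level and did not pass either. Its deposited value was 25.5 in q2 and 28.7 in q1 (log2 ratio -0.17, interval -0.50 to 0.16, q = 0.762 in the authors' deposited table). On the per-kilobase scale the Drosha level was 3.29 times that of Dgcr8 in q2 and 2.93 times in q1. The gene spans chr16:18253948-18289246 (minus strand). Its 3′ end overlaps Trmt2a, a tRNA methyltransferase gene on the opposite strand, by 825 bases, and the sources used here do not say whether the counting used strand. Trmt2a had 30.2 in q2 and 24.0 in q1 (q = 0.547 in the authors' deposited table). Gm49776, annotated as protein-coding on the same strand, overlaps the span of Dgcr8 by 4374 bases and holds part of its transcript sequence, so strand would not separate the pair. Gm49776 was not analysed here.

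Dgcr8 mRNA holds hairpin sequence that Drosha itself can cut, which ties the levels of the pair together. A hairpin in it is annotated as the microRNA gene Mir1306. A further microRNA gene, Gm24572, lies on the same strand within the span of Dgcr8 (chr16:18284550-18284637) and was not analysed here. The Mir1306 hairpin is shown because it is a stretch of a machinery mRNA on which the machinery can act. It occupies bases 524 to 602 of the 4320-base representative transcript, inside the coding sequence, and chr16:18284239-18284317 in the genome. The sequence is RefSeq's for GRCm38.p6, minus strand, with the mature miR-1306-5p and then miR-1306-3p in capitals.
Mir1306 hairpin: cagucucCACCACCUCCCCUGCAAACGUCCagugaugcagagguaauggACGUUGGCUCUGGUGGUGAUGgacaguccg
The row of Mir1306 was listed at 0 in both conditions. RNA under 200 nt had been depleted, so this says nothing about the mature microRNA.

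Dicer1 had the lowest ratio among the tested machinery genes, but the difference did not pass. Its deposited value was 18.9 in q2 and 23.1 in q1 (log2 ratio -0.29, p = 0.127, q = 0.410 in the authors' deposited table). The counting interval of -0.54 to -0.04 lies below 0, though it leaves out the spread between libraries that the authors' test includes. Dicer1 spans chr12:104687742-104751952 (minus strand), and its representative transcript of 9851 bases gave about 268 read equivalents in q2 and 271 in q1. Drosha, the other RNase III enzyme, stood at 4.44 times the level of Dicer1 in q2 and 3.64 times in q1.

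Tarbp2, the Dicer1 partner that also serves in Argonaute loading, showed the largest difference of the tested machinery genes. Its deposited value was 54.6 in q2 and 33.0 in q1, a ratio of 1.65 (log2 ratio 0.73, interval 0.27 to 1.2). The authors' deposited table gives p = 0.0112 and q = 0.124, so the gene did not pass after adjustment over all tested genes. About 120 read equivalents in q2 and 59.8 in q1 stand behind it, the fewest of the tested machinery genes. It stood at 2.89 times the level of Dicer1 in q2 and 1.43 times in q1. No test was made of that change in proportion. Tarbp2 spans chr15:102518192-102523676 (plus strand).

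A pseudogene limits what the Tarbp2 value can mean. Of the 1474 stretches of 50 bases in its representative transcript, 723 (49.1%) also occur in Gm18584, a processed pseudogene at chr6:47432126-47433089. The sources used here do not say how reads with more than 1 match were placed. The part of this sharing in the difference was not tested. Among the other machinery genes the shared part was 26.3% for Dgcr8, most of it in the overlap with Trmt2a and a smaller part with Gm49776, and 3.52% for Ago2. It was at most 1.74% for Ago1, Ago3, Dicer1 and Drosha, and no such stretch was shared by Prkra or Ago4.

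Prkra, the other double-stranded RNA-binding partner of Dicer1, was far less abundant than Tarbp2 and was not tested. Its deposited value was 5.57 in q2 and 7.19 in q1, from about 12.9 read equivalents in q2 and 13.8 in q1. The log2 ratio of -0.37 had an interval of -1.59 to 0.82, so counting error alone leaves its direction unsettled. The Tarbp2 level was 9.80 times that of Prkra in q2 and 4.59 times in q1. Prkra spans chr2:76629898-76648015 (minus strand). Every tested gene had a higher value of at least 14, and Prkra, Ago3 and Ago4 were below it in both conditions.

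Ago2 made up most of the Argonaute total in both conditions. Its deposited value was 23.6 in q2 and 27.9 in q1 (log2 ratio -0.24, interval -0.43 to -0.05, p = 0.206, q = 0.508 in the authors' deposited table). It held 62.0% of the sum over the Argonaute genes in q2 and 64.4% in q1. Ago2 spans chr15:73095844-73184935 (minus strand). Its 3′ end overlaps Chrac1, a chromatin accessibility complex gene on the opposite strand, by 1711 bases. Chrac1 had 60.6 in q2 and 60.9 in q1 (q = 0.987 in the authors' deposited table).

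Ago1, Ago3 and Ago4 lie side by side within 201.8 kb of chromosome 4, all on the minus strand, yet stood at very different levels. Ago1 (chr4:126435012-126468583) had 12.8 in q2 and 14.2 in q1, close to the lowest level at which genes were tested, and did not pass (log2 ratio -0.15, interval -0.52 to 0.22, q = 0.770 in the authors' deposited table). It made up 33.6% of the Argonaute sum in q2 and 32.8% in q1. Ago3 (chr4:126331704-126429556), separated from Ago1 by 5.46 kb, had 1.69 in q2 and 1.21 in q1, which is 4.44% of the sum in q2 and 2.80% in q1. It was not tested, and its log2 ratio of 0.48 had an interval of -0.34 to 1.26. Ago4 (chr4:126489541-126533472) was listed at 0 in both conditions. Taken as a count, that 0 has an upper interval limit of 0.392 in q2 and 0.474 in q1. A listed 0 is no proof of absence here, because the ribosomal protein genes Rpl10, Rpl29 and Rps29, named after their values were seen, were listed at 0 as well.

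The 4 Argonaute coding sequences are alike, but only Ago1 with Ago3 and Ago1 with Ago2 share a run of 50 bases or more. Aligned in pairs, the 4 sequences were identical at 73.1% (Ago2 and Ago3) to 76.4% (Ago1 and Ago3) of aligned bases. The longest run without a mismatch was 170 bases, shared by Ago1 (coding bases 1402 to 1571) and Ago3 (coding bases 1411 to 1580). It is shown because a read from inside it cannot be told apart by sequence between the pair. The sequence is from GENCODE M21 transcripts, 5′ to 3′, and capitals mark the 38 bases that Ago4 holds too.
Ago1 and Ago3: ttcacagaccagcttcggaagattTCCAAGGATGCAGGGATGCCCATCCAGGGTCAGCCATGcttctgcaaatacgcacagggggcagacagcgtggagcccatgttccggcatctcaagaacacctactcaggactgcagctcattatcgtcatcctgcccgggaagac
Between Ago1 and Ago2 the longest such run was 53 bases, and between Ago2 and Ago3 it was 17. The shared run is a small part of the transcripts, as 121 of the 15546 stretches of 50 bases in the Ago3 transcript fall in it. Whether it adds to the low Ago3 value was not tested.

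The order of the levels was the same in both conditions: Drosha, Tarbp2, Dgcr8, Ago2, Dicer1, Ago1, Prkra, Ago3, Ago4. Not all neighbours in that order were apart. In q2 Drosha (interval 77.2 to 91.3) stood above Tarbp2 (45.4 to 65.4), and Tarbp2 above Dgcr8 (21.7 to 29.9). The intervals of Dgcr8 and Ago2 (21.5 to 25.8) overlapped in q2, and those of Ago2 and Dicer1 (16.7 to 21.3) did not. In q1 Tarbp2 (25.3 to 42.6), Dgcr8 (24.3 to 33.8), Ago2 (25.4 to 30.6) and Dicer1 (20.4 to 26) each overlapped with the next in order. Tarbp2 thus stood apart from Dgcr8, Ago2 and Dicer1 in q2, while in q1 its interval overlapped those of all 3. In both conditions Ago1 lay below Dicer1, Prkra below Ago1 apart from a narrow overlap in q1, and Ago3 below Prkra. Such intervals assume the representative transcript lengths and were not tested between genes.

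**Figure D2:**
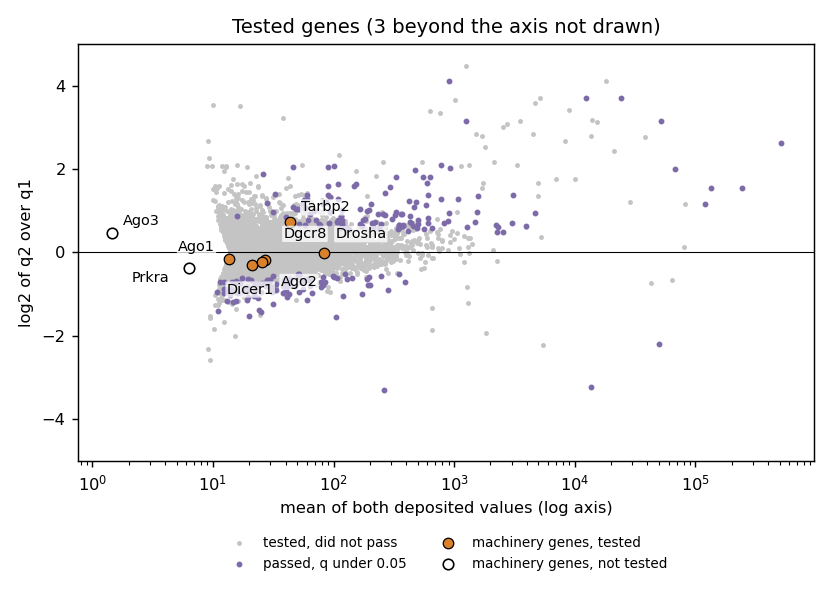
Log2 ratio of q2 over q1 (y axis) against the mean of both deposited values (x axis, log scale) for tested genes, grey where they did not pass and violet where q was under 0.05. The tested machinery genes (orange) lie among or at the edge of the grey points, from -0.29 for Dicer1 to 0.73 for Tarbp2, and Prkra and Ago3 (open circles) lie left of the tested range.

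The smallest difference that passed varied with the number of reads behind a gene. Among tested protein-coding genes with 100 to 200 read equivalents over both conditions, where Tarbp2 falls, 1.61% of 1365 passed and the smallest absolute log2 ratio that did was 0.65. With 200 to 400, the range of Dgcr8 and Ago1, 3.88% of 1519 passed and the smallest was 0.68. With 400 to 800, the range of Dicer1, it was 0.57, and with 800 or more, the range of Drosha and Ago2, 0.49. Apart from Tarbp2, the tested machinery genes had absolute ratios below the smallest that passed in their range. The smallest ratio that passed is not a detection limit. Depth, spread between libraries and adjustment were not separated here, and not passing does not show that the levels were equal.

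Across all tested protein-coding genes the ratio moved with the length and base composition of transcripts. With the genes cut into 5 classes of near-equal size, the median log2 ratio was 0.32 in the class with the shortest transcripts and -0.17 in the class with the longest. It was -0.24 in the class with the lowest GC content and 0.28 in the class with the highest. Tarbp2 has a short, GC-rich transcript (1523 bases, 57.5% GC), and the 254 tested genes in its class of both length and GC content had a median of 0.30. Dicer1 (9851 bases, 47.3% GC) and Ago2 (13800 bases, 48.9% GC) are long, and had ratios of -0.29 and -0.24, against a median of -0.22 for the 272 genes of their shared class. For Dgcr8 the class median was -0.14, and for Drosha and Ago1, which share a class, it was -0.11. Set against these medians, the 8 genes with values had a median ratio of -0.03, a comparison added once the values were known. Drosha then had a ratio of 0.10, so its sign turned. The part of length and GC content in the ratios was not tested.

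**Figure D3:**
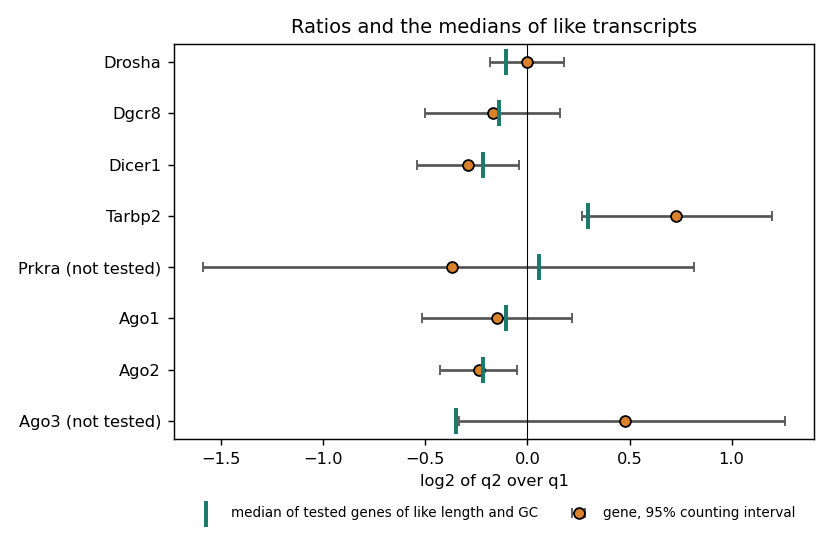
Log2 ratio of q2 over q1 (x axis) for the 8 genes with values above 0, as points with 95% counting intervals, and the median of tested genes in the same class of length and GC content as a green tick. The ticks of Dgcr8, Dicer1, Ago1 and Ago2 lie close to the points, while Tarbp2, Prkra and Ago3 lie farther from theirs.

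Lists of machinery partners, microRNA hosts and reported microRNA targets included 6 genes that passed, and each of the 6 was lower in q2. The 8 lists of pathway genes held 106 different genes, of which 81 were tested and 6 passed (7.41%). Of all tested genes 4.25% passed, 1.94% as lower and 2.31% as higher in q2. An unadjusted p under 0.05 was met by 20 of the 81, and by 18.8% of all tested genes. Their median log2 ratio was -0.04. The lists and genes were chosen with earlier results of these data known, and the shares describe these libraries only. The counts in single lists below are small and stand beside the same 4.25% and 18.8% of all tested genes. At a q under 0.10 there were 8 of the 81, 7 lower and 1 higher in q2, beside 7.36% of all tested genes (3.22% lower, 4.14% higher). Transcripts of the 6 were GC-poor, at 40.2% to 44.8%, and the medians of their length and GC classes ran from -0.35 to -0.11. Their own ratios ran from -0.90 to -0.60. Set against its class median, a gene's ratio was between -0.25 (Xpo1) and -0.67 (Hnrnpa2b1). The 6 were picked because they passed, so large ratios were built into that choice. The part of length and GC content in them was not tested.

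Among 17 tested partners of the microprocessor, the helicase Ddx5 and the RNA-binding protein Hnrnpa2b1 were lower in q2. Ddx5 (p68), which joins Drosha on some primary microRNAs, had 112.7 in q2 and 171.4 in q1 (log2 ratio -0.60, q = 0.0135 in the authors' deposited table). Hnrnpa2b1, a reader linked to primary microRNA processing, had 142.1 in q2 and 244.6 in q1 (log2 ratio -0.78, q = 0.00367 in the authors' deposited table). The related helicase Ddx17 had -0.22 and Srrt (Ars2), which links the cap-binding complex to Drosha, had 0.28, and neither passed. The list median was -0.16.

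Precursor export rests on Xpo5, which carries hairpins out of the nucleus with the GTPase Ran, and neither passed. Xpo5 had 61.8 in q2 and 62.9 in q1 (log2 ratio -0.03), and Ran had 353.9 in q2 and 320.1 in q1 (0.14). Xpo1, the general export receptor, which exports some microRNA precursors, was lower in q2, with 85.6 in q2 and 129.7 in q1 (log2 ratio -0.60, q = 0.0122 in the authors' deposited table). The median of these 3 genes was -0.03.

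None of the 5 tested genes that handle double-stranded RNA beside Dicer1 passed the authors' test, where 4.25% of all tested genes did. Beside 18.8% of all tested genes, 1 of the 5 had an unadjusted p under 0.05. That gene was the helicase Dhx9, with 154.2 in q2 and 205.0 in q1 (log2 ratio -0.41, q = 0.112 in the authors' deposited table). Snd1, a nuclease found with Argonaute complexes, had a ratio of 0.15. Tsn and Tsnax, which form the C3PO nuclease, had -0.11 and -0.16. The list median was -0.16.

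Of 12 tested chaperones that open Argonaute for duplex loading, Hsp90aa1, the inducible Hsp90 isoform, was the 1 that passed. It had 198.4 in q2 and 369.1 in q1 (log2 ratio -0.90, q = 0.00367 in the authors' deposited table). The constitutive isoform Hsp90ab1 was far more abundant, at 2120 in q2 and 2444 in q1, and did not pass (-0.21). The cochaperones Fkbp4 (0.32) and Stip1 (0.23) did not pass, and the list median was -0.11.

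Among Argonaute cofactors, the decapping helicase Ddx6 passed as 1 of 14 tested. It had 29.5 in q2 and 52.2 in q1 (log2 ratio -0.83, q = 0.00367 in the authors' deposited table). Mov10, a helicase bound to Argonaute, had 0.34, Fxr1 had 0.07, and Trim71, a let-7 target that represses mRNAs in stem cells, had 0.24. Of the GW182 proteins that link Argonaute to deadenylases, named after their values were seen, Tnrc6a had -0.53 and Tnrc6c 0.62, with q = 0.185 and q = 0.0855 in the authors' deposited table, and Tnrc6b was not tested. The median of the cofactors was -0.06.

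Of 8 tested genes for tailing and decay of small RNAs, 0 had a q under 0.05 by the authors' Cuffdiff test, beside 4.25% of all tested genes. An unadjusted p under 0.05 was found for 2 of the 8, beside 18.8% of all tested genes. Counts this small say nothing particular about the list. Lin28a, which blocks let-7 maturation, had 187.4 in q2 and 191.9 in q1 (log2 ratio -0.03). The exonucleases Xrn2 (-0.52, q = 0.131) and Pnpt1 (-0.52, q = 0.19) had the unadjusted p under 0.05 in the authors' deposited table. Tut1, a terminal uridylyltransferase, had -0.34, and the list median was -0.19.

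**Figure D4:**
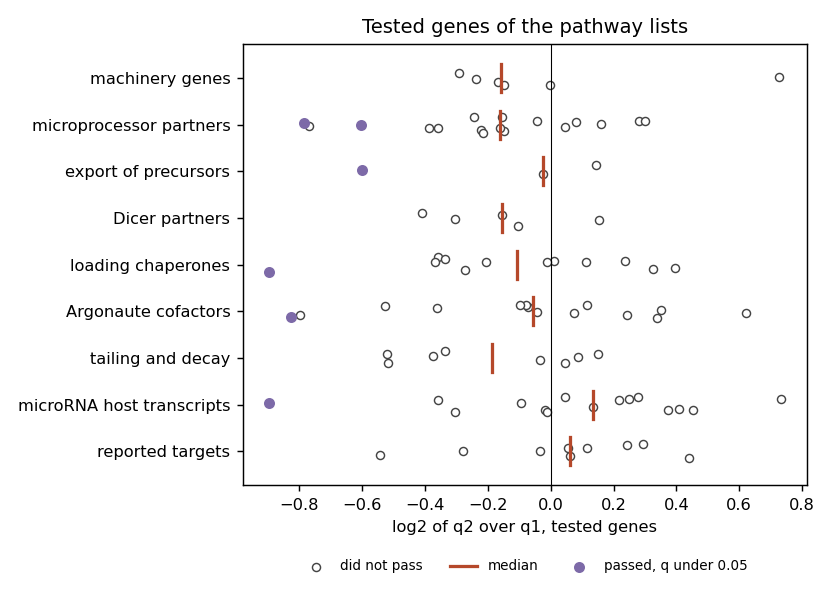
Log2 ratio of q2 over q1 (x axis) of each tested gene, by list (y axis), with open circles for genes that did not pass, violet circles for genes with a q under 0.05, and a red line at the list median. The 6 violet points all lie at -0.60 or lower, and the machinery genes in the top row hold none.

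Hosts and targets of microRNAs gave a further view of the pathway. Of 15 tested host transcripts, whose microRNA hairpins Drosha cuts, Smc4, the condensin subunit that hosts miR-15b and miR-16-2, was lower in q2. It had 21.4 in q2 and 39.9 in q1 (log2 ratio -0.90, q = 0.0104 in the authors' deposited table). Mcm7, which hosts the miR-106b cluster, had 0.28, Mest 0.04 and Srebf2 0.22, and the list median was 0.14. The row of Mir15b itself had 865.1 in q2 and 0 in q1 and did not pass (q = 0.542 in the authors' deposited table). Of 17 genes reported as targets of the miR-290 cluster or of let-7 in stem cells, 9 were tested and 0 passed the Cuffdiff test, with 1 at an unadjusted p under 0.05. Over all tested genes these shares were 4.25% and 18.8%. Among the 9 tested targets Sall4 had 0.12, Igf2bp1 0.05 and Mycn 0.30. The target with the unadjusted p under 0.05 was Ei24, named after its value was seen (-0.54, q = 0.196 in the authors' deposited table). Of the 9, 6 were higher and 3 lower in q2. The list median was 0.06, equal to that of all tested genes at 2 decimals.

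The microRNA genes themselves were poorly covered. Of 1098 rows for microRNA genes, 1017 were listed at 0 in both conditions and 63 were tested. By the authors' test 1 of the 63 passed, beside 4.25% of all tested genes. It was Mir6236, named after its value was seen, which was lower in q2 (17905 in q2 and 81549 in q1, q = 0.00367 in the authors' deposited table). A mature microRNA is far shorter than the 200 nt below which RNA was depleted, so these values may describe longer RNA over the hairpins or remnants. Which RNA the values come from was not tested, for Mir6236 as for the other rows. Of the 63 tested rows, 25 were at 0 in q2 alone and 20 at 0 in q1 alone.

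The miR-290 cluster on chromosome 7 makes the most abundant microRNAs of mouse embryonic stem cells, and it shares a seed with the miR-302 family. Mature sequences (RefSeq, GRCm38.p6) are shown to make that shared seed, bases 2 to 8 in capitals, visible.
miR-291a-3p: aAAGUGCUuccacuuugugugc
miR-294-3p: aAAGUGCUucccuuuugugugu
miR-295-3p: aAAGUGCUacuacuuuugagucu
miR-302b-3p: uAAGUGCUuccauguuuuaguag
miR-290a-3p: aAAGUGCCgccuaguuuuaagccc
The first 4 have the same seed, and that of miR-290a-3p is close to it. Of their genes, Mir291a alone had a value in both conditions, 561.8 in q2 and 382.5 in q1 (q = 0.884 in the authors' deposited table). Mir294, Mir295, Mir302b and the row named Mir290 were listed at 0 in both. Mir291b, of the same cluster, had 0 in q2 and 411.0 in q1, and did not pass (q = 0.543 in the authors' deposited table). Mir292b, also of this cluster, had 166.3 in q2 and 0 in q1, the opposite order, and was not tested.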

How the data were processed

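RNA of E14 cells was sequenced in 4 libraries, 2 per esiRNA, after depletion of ribosomal RNA and RNA under 200 nt, per the labels, and grouped by title. Per the submitters' processing notes, TopHat and Cuffdiff were used, with the names mm10 and GRCm38.p4 given for the build. The sources used here state no version, option or annotation. The authors deposited 1 Cuffdiff table with a value per condition, a test score, a p-value and a q-value adjusted over tested genes. The unit of the values is not stated, and FPKM is Cuffdiff's default. Conditions q1 and q2 were not assigned to an esiRNA.

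Log2 ratios of q2 over q1 were computed from the deposited values, and q was taken as deposited (a new Benjamini-Hochberg adjustment over tested genes differed by at most 5.24e-07). A comma in 17 gene names was replaced by a point. Depth was fitted to 3281 single-transcript protein-coding genes: 68.3% of 356 low values in q2 and 71.0% of 396 in q1 lay within 0.15 of a whole step, against 30.0% for evenly spread values. The step was fitted to the same values, and the fit was tested on simulated data. The simulated data did not model the combining of libraries, so that test cannot show how exact the depths are here. Transcripts came from GENCODE M21 (GRCm38), 1 per gene by APPRIS rank; 91.9% of tested genes had a protein-coding one. Shared stretches of 50 bases were searched on both strands. Python 3.11.15, numpy 2.4.6, pandas 2.3.3, scipy 1.17.1 and biopython 1.88 were used. Named list genes are those that passed, filled up to 4 by mean value; markers were summarised. The members and lists were chosen with earlier results of these data known.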

Additional observations from a re-analysis of the deposited data

How the results depend on the processing

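No machinery gene passed at a q under 0.01 or under 0.10; at an unadjusted p under 0.05 there was 1. All tested genes that passed numbered 243, and 107 at a q under 0.01, 421 at a q under 0.10 and 1074 at an unadjusted p under 0.05. No tested gene had a higher value under 10, so the filter at 10 removed none. The median ratio of the 8 genes with values was -0.16, and -0.22 when recentred on the median of tested genes, -0.19 on the upper quartiles, -0.15 with 1 added to each value and -0.027 by length and GC class. The number higher in q2 was 2, or 3 by length and GC class. Of 32 values of single genes under these alternatives, 1 left its counting interval (Ago2, at -0.02 by class) and 1 turned sign (Drosha, at 0.10 by class). Over Ago1 and Ago2 alone, Ago2 held 64.9% in q2 and 66.3% in q1. The median of the pathway genes was -0.10 when recentred and -0.087 over all with values above 0. Classes by length and GC content, the q under 0.10 for microRNA rows and the median over tested genes alone were added after the data were seen. No paired analysis was possible because no library has values of its own, and for the same reason no replicate could be left out. Depth limits Prkra, Ago3 and Ago4 most.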
